A study of Homo sapiens with 4 samples.

Results

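NRP1, NRP2, PLXNA1, PLXNA2, PLXNB1, PLXNB2, SEMA3A, SEMA3C, SEMA4B and VEGFA encode co-receptors, receptors and ligands of semaphorin and vascular endothelial growth factor (VEGF) signaling. These 10 genes, of 19901 protein-coding genes counted, were chosen by name with the change of NRP1 on KAP1 depletion already known. Their differences between dTAG and DMSO are therefore given as a description. Their calls at an adjusted p under 0.05 in the fit over all tested genes are listed, and nothing is read from them. HCT116 is a human colon cancer cell line. All 4 libraries came from a single clone of it, labeled KAP1_dTAG_CloneD5, in which endogenous KAP1 carries a degron tag, and the controls carry this tag as well. Unstimulated cells received DMSO, the vehicle, in 2 libraries or 500 nM dTAG, a ligand that directs the tagged KAP1 to the proteasome, in 2 libraries, each for 8 h. They were then labeled with 500 μM 4-thiouridine for 10 min. Each library pooled several dishes of cells, and the labels do not say whether the replicates were separate experiments, so errors cover only the spread between these libraries. TT-Seq sequences the purified labeled RNA and reads transcription over the whole gene, introns included.

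Semaphorins are secreted or membrane-bound ligands first known for steering growing axons. Plexins are their receptors, and the intracellular part of a plexin acts on small GTPases that control the cytoskeleton and adhesion. The neuropilins NRP1 and NRP2 have short intracellular parts and work as co-receptors, holding secreted class 3 semaphorins to plexins of the A type. Through another part they bind VEGFA, the main angiogenic growth factor, and so link it to VEGF receptors. Plexins of the B type bind class 4 semaphorins directly and associate with receptor tyrosine kinases such as MET. In epithelial tumors, including those of the colon, these genes are studied for migration, invasion and the supply of blood vessels.

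Counts on protein-coding genes summed to between 93105627 and 102314741 per library, and 12612 genes that reached 50 counts in every library were tested, among them each of the 10. Spearman's rho of the log2 fold change across these genes was -0.56 with GC content and 0.42 with gene length, and DMSO replicate 2 over DMSO replicate 1 also followed GC content (rho 0.75). ERCC RNAs, a spike-in mix added to the purified RNA, made up 0.0103% to 0.0265% of the gene counts and served as an alternative scale. Changes of the 10 genes are given as fitted and with each library's trend on GC content and length removed. Of 8 markers of colon epithelium, 6 passed the count minimum and CDX1 and VIL1, markers of differentiated cells, did not. The summed counts of these 8 markers ran from 95892 to 116801 per library. Of 5 endothelial markers, 1 passed the count minimum, VWF with 141 to 217 counts, and the 5 summed to 219 to 346 counts. Of 4 mesenchymal markers, 1 passed, COL1A1 with 420 to 538 counts. The 4 summed to 464 to 584 counts, with COL1A2 at 0 in every library.

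The level in the DMSO libraries, which is not the measure that chose the genes, shows how strongly each was transcribed with KAP1 present. Levels are CPM, which are counts scaled to a common normalized library size, per kilobase of the whole gene interval, so that genes of different length can be compared. Annotated exons take up 88.5% of the gene for VEGFA, but 7.26% for NRP1 and 1.72% for SEMA3A. The part of this exon share in the order of levels was not tested. VEGFA was the highest, with 6.61 and 8.17 CPM per kilobase in the DMSO replicates, which placed its mean at the 94.3rd percentile of tested genes. PLXNB2 followed with 3.83 and 4.43 CPM per kilobase, at the 88.0th percentile. PLXNA1 had 1.07 and 1.21, SEMA4B 0.856 and 1.02, and PLXNB1 0.661 and 0.752 CPM per kilobase, all in the middle of the range of tested genes. SEMA3C stood at 0.481 and 0.384 CPM per kilobase. NRP1 was low at this point, with 0.162 and 0.156 CPM per kilobase and a mean at the 14.5th percentile. NRP2, SEMA3A and PLXNA2 were near the floor of the tested genes, with means of 0.0096, 0.0052 and 0.0049 CPM per kilobase, below the 2nd percentile. SEMA3A and PLXNA2 could not be ordered, since the ranges of their DMSO replicates overlapped, while each other pair of neighbors in this order was separated.

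Within the families, the levels were unequal. PLXNB2 alone made up 54.2% and 53.8% of the summed per-kilobase level of the plexin genes in the DMSO libraries. PLXNA1 held 15.1% and 14.7% and PLXNB1 9.35% and 9.13% of that sum. NRP1 made up 94.8% and 93.8% of the neuropilin level. Among the semaphorins, the membrane-anchored SEMA7A, which is not among the 10 genes and was singled out after its level was seen, held 21.9% and 23.7% of the summed level. The VEGF receptor genes FLT1, KDR and FLT4 had between 6 and 21 counts in any library and were not tested. The plot of DMSO levels sets the 10 genes among their families.

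**Figure D1:**
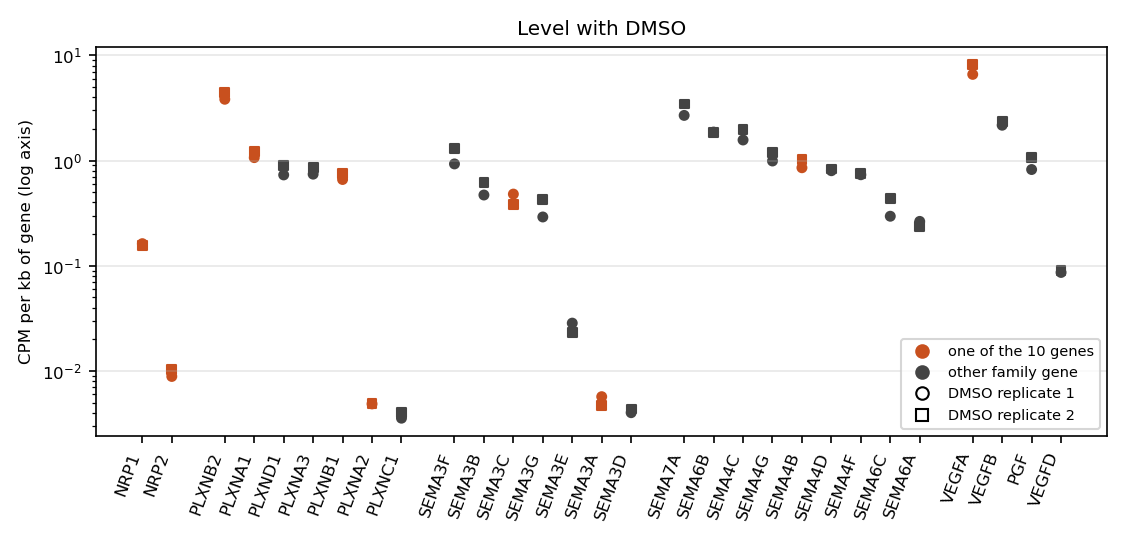
Level of the tested neuropilin, plexin, semaphorin and VEGF genes in the DMSO libraries, in CPM per kilobase of gene on a log axis, grouped by family. Circles are DMSO replicate 1, squares are DMSO replicate 2 and orange marks the 10 genes. VEGFA and PLXNB2 lie above 3 CPM per kilobase, and NRP2, PLXNA2 and SEMA3A lie near 0.01 or below.

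NRP1, the co-receptor for class 3 semaphorins and VEGFA, was the member with the largest difference between the conditions. NRP1 (ENSG00000099250.17) lies on chromosome 10 of hg38 from 33177491 to 33336262, on the minus strand. It had 2553 and 2464 counts with DMSO and 5266 and 5190 with dTAG. Scaled to the normalized library size, these were 25.8 and 24.7 CPM with DMSO and 52.6 and 57.5 CPM with dTAG. Both dTAG libraries lay far above both DMSO libraries, and the spread within either condition was small beside the gap. The mean went from 25.2 ± 0.763 CPM with DMSO to 55.1 ± 3.49 CPM with dTAG (SD, n = 2 each), a 2.18-fold difference, or 1.13 on the log2 scale (standard error 0.095). With the GC and length trend removed, the log2 fold change was 1.02. Without any single library, it stayed between 1.06 and 1.19. In bulk RNA, a change per cell and a change in the share of cells that transcribe a gene cannot be told apart.

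NRP2 (ENSG00000118257.16, chromosome 2 from 205681989 to 205798133, plus strand), which prefers other class 3 semaphorins than NRP1, showed no such difference. It had 102 and 120 counts with DMSO and 125 and 93 with dTAG, and the conditions overlapped. Its log2 fold change was 0.03 with a standard error of 0.25, so that at this depth a change of modest size in either direction was not detectable. Per kilobase, the level of NRP1 was 18.3 and 15.0 times that of NRP2 in the DMSO replicates and 30.8 and 40.8 times in the dTAG replicates. These ratios rest on about 100 NRP2 counts per library.

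The nearest counted gene on the lower-coordinate side of NRP1 is ITGB1, which encodes the integrin beta 1 subunit, 171.699 kb away. ITGB1 had 222 and 181 CPM with DMSO and 263 and 268 CPM with dTAG, and both dTAG libraries were higher. On the log2 scale ITGB1 rose by 0.39 (standard error 0.099, BH-adjusted p 0.020 in edgeR), or by 0.26 with the trend removed. ITGB1 lost its call without either dTAG replicate, at 0.41 and 0.38, and stood at 0.26 without DMSO replicate 2 and at 0.17 with a covariate for the ERCC factor. On the other side, PARD3, a cell polarity gene 773.297 kb away, had overlapping conditions and a log2 fold change of 0.08. Of the 20 genes that flank the 10, 16 were tested and ITGB1 was the 1 called, where 7.1% of all tested genes were called. Among the 5 tested genes whose log2 CPM followed NRP1 most closely over the 4 libraries, by Euclidean distance of the deviations from the DMSO mean, were ITGBL1 (distance 0.163), SUN3 (0.222), KRT80 (0.227) and NPIPB13 (0.264). ITGBL1 overlaps FGF14 on the opposite strand, and NPIPB13 belongs to a family of near-identical copies, so its counts are uncertain. A likeness over 4 libraries in 2 conditions is a description of shared size and direction.

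**Figure D2:**
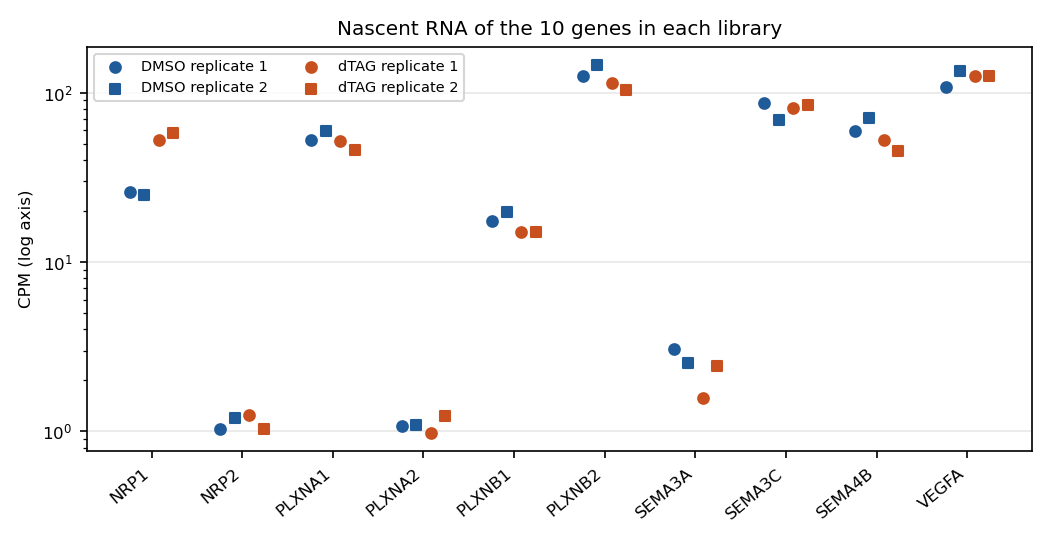
CPM of the 10 genes in each library, on a log axis. Blue points are DMSO libraries, orange points dTAG libraries, circles replicate 1 and squares replicate 2. NRP1 is the gene whose dTAG points, at 52.6 and 57.5 CPM, stand apart above its DMSO points, while NRP2, PLXNA2, SEMA3C and VEGFA have overlapping conditions.

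Among the plexin receptors, PLXNB2, PLXNB1 and PLXNA1 had lower values in each dTAG library than in either DMSO library, and PLXNB2 was the 1 called. Of all tested genes, 30.7% were lower without overlap and 3.66% were called lower. PLXNB2 (ENSG00000196576.14, chromosome 22 from 50274978 to 50307627, minus strand), a receptor for class 4 semaphorins, had 125 and 145 CPM with DMSO and 114 and 104 CPM with dTAG. The conditions did not overlap, and the log2 fold change was -0.31 (standard error 0.091). PLXNB1 (ENSG00000164050.12, chromosome 3 from 48403853 to 48430051, minus strand), the receptor for SEMA4D, had 17.3 and 19.7 CPM with DMSO and 15.1 and 15.1 CPM with dTAG, also without overlap, a log2 fold change of -0.30 (standard error 0.12). PLXNA1 (ENSG00000114554.11, chromosome 3 from 126988593 to 127037392, plus strand), a partner of the neuropilins, had 52.1 and 59.1 CPM with DMSO and 51.9 and 45.6 CPM with dTAG. Here dTAG replicate 1 lay just under DMSO replicate 1, and the log2 fold change was -0.19 (standard error 0.095). PLXNA2 (ENSG00000076356.6, chromosome 1 from 208022241 to 208244320, minus strand), another neuropilin partner, had between 98 and 111 counts in every library. Its conditions overlapped, at a log2 fold change of 0.02 (standard error 0.25).

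PLXNB2, PLXNB1 and PLXNA1 are rich in GC, at 65.0%, 59.8% and 61.8% of the gene interval, which places each above the 93rd percentile of tested genes. With the GC and length trend removed, their log2 fold changes were -0.02, -0.06 and 0.05. The trend at the GC content and length of these genes was -0.29, -0.24 and -0.24, close to the fitted difference of PLXNB2 and PLXNB1 and larger than that of PLXNA1. PLXNB2 held 52.6% and 52.0% of the plexin level in the dTAG libraries.

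The sequence before start sites that RefSeq gives for these genes was also examined. The 250 bases before 1 start site each of PLXNA1, PLXNB1 and PLXNB2, the members among the plexins that were lower in both dTAG libraries, and of SEMA4B, whose difference outlasted the trend, are shown 5′ to 3′ from the GRCh38.p14 table of RefSeq. Capitals mark the GC box GGGCGG, the core of sites bound by SP1, on either strand. The windows are chr3:126982865-126983114 (plus strand), chr3:48429345-48429594 (minus strand), chr22:50301670-50301919 (minus strand) and chr15:90184670-90184919 (plus strand). That of PLXNA1 lies upstream of the counted interval, and the others lie within theirs.
PLXNA1: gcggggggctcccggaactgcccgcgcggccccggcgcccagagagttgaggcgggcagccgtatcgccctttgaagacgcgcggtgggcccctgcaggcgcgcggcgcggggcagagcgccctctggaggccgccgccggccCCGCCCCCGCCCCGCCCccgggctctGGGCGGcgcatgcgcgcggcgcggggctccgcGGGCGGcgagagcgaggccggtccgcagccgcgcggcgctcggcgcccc
PLXNB1: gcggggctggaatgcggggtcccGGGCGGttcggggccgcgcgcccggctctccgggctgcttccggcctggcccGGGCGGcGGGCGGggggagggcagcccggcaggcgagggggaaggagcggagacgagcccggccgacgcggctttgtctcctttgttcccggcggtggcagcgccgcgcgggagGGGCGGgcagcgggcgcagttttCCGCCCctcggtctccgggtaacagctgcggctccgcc
PLXNB2: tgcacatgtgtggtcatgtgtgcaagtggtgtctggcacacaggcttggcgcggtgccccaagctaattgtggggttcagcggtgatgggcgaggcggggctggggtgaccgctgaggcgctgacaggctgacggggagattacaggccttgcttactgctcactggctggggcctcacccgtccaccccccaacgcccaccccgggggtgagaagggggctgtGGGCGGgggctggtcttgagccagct
SEMA4B: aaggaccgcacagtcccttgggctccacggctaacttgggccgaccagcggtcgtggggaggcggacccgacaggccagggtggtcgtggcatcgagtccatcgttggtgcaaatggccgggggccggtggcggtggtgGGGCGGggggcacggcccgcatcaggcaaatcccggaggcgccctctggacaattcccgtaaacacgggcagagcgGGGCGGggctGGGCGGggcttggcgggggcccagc
The GC content of these windows is 84.4% for PLXNA1, 79.2% for PLXNB1, 66.4% for PLXNB2 and 72.0% for SEMA4B, against a median of 62.0% over the promoters of all counted genes in the table. Other start sites of the same genes were poorer or richer in GC, at 59.6% with no GC box for PLXNB1, and at 54.0% with no GC box and 79.2% for SEMA4B. The table holds 11 start sites for 7 of the 10 genes, and NRP1, SEMA3A and VEGFA are not among them. A GC box was found before 8 of the 11, and in 54.2% of the 21556 promoters of counted genes. The EGR site GCGNGGGCG, whose letters can overlap a GC box, was found before 3 of the 11, at PLXNA1, PLXNA2 and SEMA3C, and in 11.0% of all. The TEAD site GGAATG was found before 1, at PLXNB1, and in 10.5% of all. None of the 11 held the AP-1 site TGANTCA, the CRE TGACGTCA, the HIF site ACGTG or the E-box CACGTG, which 5.37%, 2.05%, 20.2% and 7.39% of all promoters held. All motifs were searched on both strands, and a match describes letters in a window.

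SEMA4B, a membrane-bound class 4 semaphorin, was lower with dTAG, and this difference largely remained with the trend removed. SEMA4B (ENSG00000185033.14) lies on chromosome 15 from 90160603 to 90229679, on the plus strand. It had 59.1 and 70.5 CPM with DMSO and 52.6 and 44.9 CPM with dTAG, with no overlap. The mean went from 64.8 ± 8.08 CPM with DMSO to 48.7 ± 5.43 CPM with dTAG (SD, n = 2 each), so that the log2 fold change was -0.41 (standard error 0.10), or -0.34 with the trend removed. Its GC content, 50.7%, lies at the 69.8th percentile of the tested genes, and the trend at its GC content and length was -0.07.

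The secreted ligands SEMA3A and SEMA3C, class 3 semaphorins that signal through neuropilins and plexins of the A type, differed from each other. SEMA3A (ENSG00000075213.10, chromosome 7 from 83955776 to 84492724, minus strand), the founding repulsive cue of the class, had 303 and 251 counts with DMSO and 157 and 218 with dTAG, which gave 3.06, 2.52, 1.57 and 2.42 CPM. The conditions did not overlap, although dTAG replicate 2 lay close to DMSO replicate 2. Its log2 fold change was -0.49 with a standard error of 0.23. This gene is among the poorest in GC of all tested genes (34.4%, at the 0.301st percentile), and with the trend removed its log2 fold change was -0.67. Leaving out single libraries moved it between -0.83 and -0.20. SEMA3C (ENSG00000075223.13, chromosome 7 from 80742537 to 80922359, minus strand), which can attract as well as repel, had 86.4 and 69.1 CPM with DMSO and 81.3 and 84.6 CPM with dTAG. Both dTAG libraries lay between the DMSO replicates, with a log2 fold change of 0.09 (standard error 0.096), or -0.09 with the trend removed.

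VEGFA (ENSG00000112715.21, chromosome 6 from 43770183 to 43786487, plus strand) had overlapping conditions. It had 108 and 133 CPM with DMSO and 126 and 125 CPM with dTAG, so that both dTAG libraries lay between the DMSO replicates. The log2 fold change was 0.05 (standard error 0.095). Its GC content of 56.4% is high, and with the trend removed the log2 fold change was 0.27. Without DMSO replicate 1 the fitted value was -0.09.

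Of the 10 genes, 3 were called at an adjusted p under 0.05 (Benjamini-Hochberg, BH), where 7.1% of all tested genes were called. NRP1 was the 1 called higher (3.44% of all tested genes) and PLXNB2 and SEMA4B were the 2 called lower (3.66% of all). Since the genes were chosen with this contrast known, nothing is read from these counts. By libraries, 6 of the 10 had conditions that did not overlap, 1 higher and 5 lower with dTAG, where 58.8% of all tested genes did, 28.1% higher and 30.7% lower. The median log2 fold change of the 10 was -0.08, against -0.015 over all tested genes, and with the trend removed it was -0.004. In that fit 4 were called, NRP1 and VEGFA higher and SEMA3A and SEMA4B lower, where 18.1% of all tested genes were called, 10.6% higher and 7.45% lower. PLXNB2 lost its call there. PLXNB2 and SEMA4B also lost their calls without dTAG replicate 1, with log2 fold changes of -0.38 and -0.53, and without dTAG replicate 2, with -0.25 and -0.30. The same held with the ERCC factor as a covariate, with -0.11 and -0.14. Without DMSO replicate 2, PLXNB2 stood at -0.20. Far fewer of all tested genes were called in the fits without a dTAG replicate. A call lost there, for these or other genes, is thus shared with most called genes.

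The replicates of one condition differed along the same axis. DMSO replicate 2 exceeded DMSO replicate 1 by 0.31 on the log2 scale for VEGFA, 0.26 for SEMA4B, 0.21 for PLXNB2, 0.19 for PLXNB1 and 0.18 for PLXNA1, the 5 members with the highest GC content. In SEMA3C and SEMA3A, the 2 members with the lowest GC content, it was lower, with -0.32 and -0.28. For NRP1 this ratio was -0.06, for PLXNA2 0.02 and for NRP2 0.22. Between the dTAG replicates, SEMA3A had the widest ratio (0.62) and PLXNB1 the narrowest (-0.004). The part of library composition in the small differences of these genes was not tested. The trend was fitted in each library, those with dTAG included. Its removal therefore also takes out any difference between the conditions that follows GC content or length. The plot of change against GC content shows that NRP1 and SEMA4B kept most of their difference, and that PLXNA1, PLXNB1 and PLXNB2 moved to near 0.

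**Figure D3:**
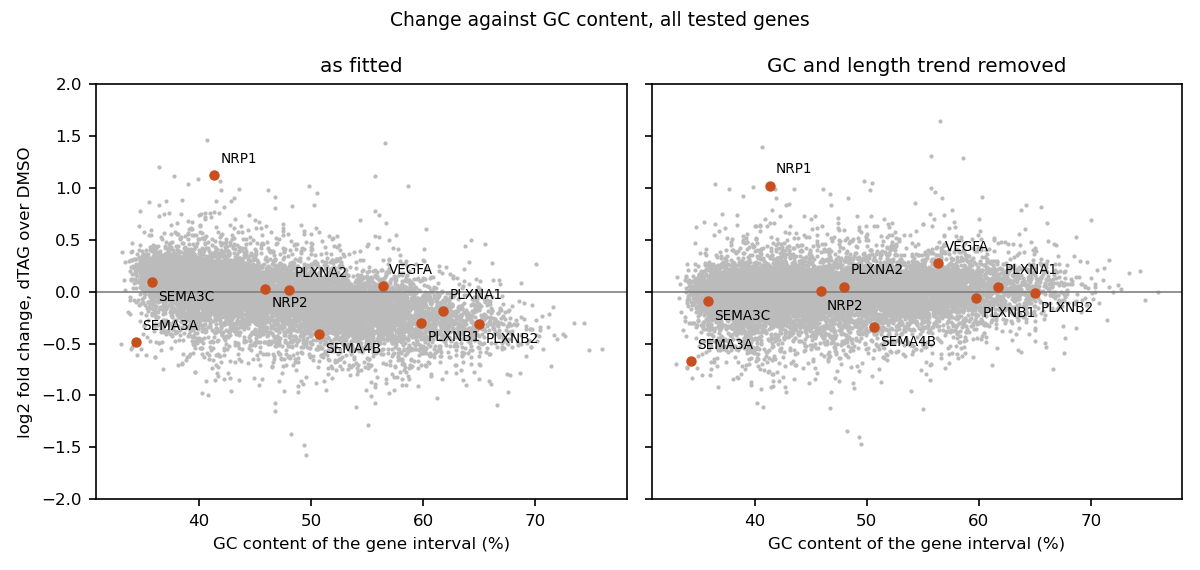
Log2 fold change of dTAG over DMSO against the GC content of the gene interval in percent, as fitted on the left and with the GC and length trend removed on the right. Grey points are the 12612 tested genes and orange points the 10 genes. NRP1 lies at 1.13 and 1.02, while PLXNB2 moves from -0.31 to -0.02.

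The rest of the neuropilin, plexin, semaphorin and VEGF families gave a background for the 10. Of 39 family genes 29 were tested, 8 above 0 and 21 below. Their median log2 fold change was -0.19, or -0.04 with the trend removed, against -0.015 over all tested genes as fitted. With ERCC totals as library sizes the family median was 0.45, below the 0.63 of all tested genes. In the plexins, 7 of 9 genes were tested, and 1, PLXNB2, was called lower, where 3.66% of all tested genes were. All 7 class 3 semaphorin genes were tested and 2 were above 0 and 5 below. Among 13 membrane-bound semaphorin genes, 9 were tested and 8 lay below 0, 7 of them without overlap, where 30.7% of all tested genes were lower without overlap. The median log2 fold change of the 9 was -0.29, or -0.18 with the trend removed. Of these 9, SEMA4B was the 1 called, again lower, against the same 3.66% of all tested genes. Outside the 10 genes, 19 family genes were tested and edgeR called 0 of them, where it called 7.1% of all tested genes. At an unadjusted p under 0.05 there were 9 of the 19, all lower. Over all tested genes, 26.6% passed that threshold and 14.3% were lower. The number lower depended on the setting, at 12 with upper-quartile normalization, 4 with the trend removed and 1 with the ERCC factor as a covariate. Of the 12612 tested genes, 2784, 1890 and 1299 were lower at that threshold in these 3 fits. DESeq2 called 1 of the 19, where it called 10.1% of all tested genes. With the trend removed, 1 of the 19, SEMA7A, was called higher at 0.38, and 2, SEMA4F and SEMA6A, were called lower at -0.30 and -0.39. In that fit 10.6% of all tested genes were called higher and 7.45% lower.

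**Figure D4:**
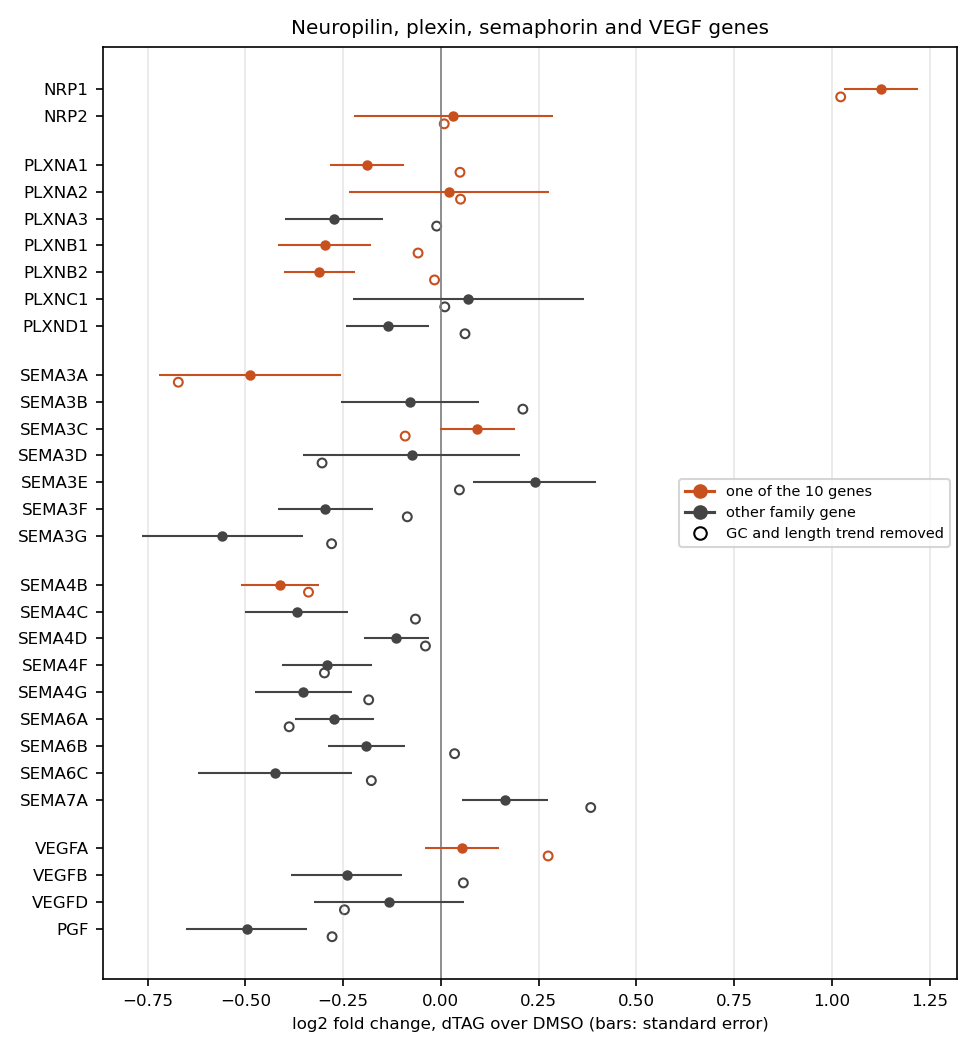
Log2 fold change of dTAG over DMSO for the 29 tested genes of the families. Filled points are fitted values with their standard error as bars, open points are values with the GC and length trend removed, and orange marks the 10 genes. NRP1 stands apart at 1.13, the other genes lie between -0.56 and 0.24, and the open points of most plexins lie near 0.

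Partners of these receptors inside and beside the membrane were counted as a list of 25 co-receptors, GTPase regulators and downstream enzymes, of which 23 were tested. In edgeR's quasi-likelihood test, 2 were called higher, 1 lower and 20 were not called, with a median log2 fold change of -0.02. Over all tested genes, 3.44% were called higher and 3.66% lower. MICAL2, of the family of actin-oxidizing enzymes that act downstream of plexins, had 85.6 and 86.4 CPM with DMSO and 135 and 133 CPM with dTAG. This is a rise of 0.64 on the log2 scale (standard error 0.082, BH-adjusted p 5.5e-05 in edgeR's quasi-likelihood test), and MICAL2 was called under 14 of 15 alternatives. FYN, a Src-family kinase that associates with plexins, had 55.6 and 52.7 CPM with DMSO and 69.8 and 81.0 CPM with dTAG, a log2 fold change of 0.48 (standard error 0.091). FYN was called (BH-adjusted p 0.0031 in edgeR), but not without dTAG replicate 2, where its log2 fold change was 0.37. DPYSL2, a microtubule-binding mediator of SEMA3A signaling, was lower at -0.30 (BH-adjusted p 0.037 in edgeR), and lost its call without either dTAG replicate, at -0.32 and -0.27. Of 6 tested genes for proteases that cut semaphorins or neuropilins, 0 were called, 2 had an unadjusted p under 0.05 and DESeq2 called 1. Over all tested genes, 26.6% had such an unadjusted p and DESeq2 called 10.1%.

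VEGFA is a target of hypoxia-inducible factor (HIF), and the genes of that pathway did not move together. Of 8 HIF regulators, 7 were tested and EGLN3, an oxygen-dependent HIF hydroxylase and itself a HIF target, was called lower, with a log2 fold change of -0.47 (BH-adjusted p 0.030 in edgeR). EGLN3 overlaps SPTSSA on the same strand, and it lost its call without dTAG replicate 1 (-0.52) or dTAG replicate 2 (-0.41), and with the ERCC factor as a covariate (-0.33). Of 22 hypoxia response genes, 19 were tested, 2 were called higher, 1 lower and 16 were not called, with a median log2 fold change of 0.009. The shares over all tested genes were 3.44% higher and 3.66% lower. HK2, which phosphorylates glucose, rose from 159.7 ± 9.98 CPM with DMSO to 212 ± 5.68 CPM with dTAG (SD, n = 2 each), or by 0.41 on the log2 scale. PDK1, which holds back pyruvate oxidation, rose by 0.36 on the log2 scale. The BH-adjusted p in edgeR was 0.0080 for HK2, 0.021 for PDK1 and 0.0023 for ADM. HK2 and PDK1 lost their calls without either dTAG replicate, at 0.39 and 0.44 for HK2 and 0.38 and 0.34 for PDK1, and PDK1 also with upper-quartile normalization, at 0.29. ADM, a vasoactive peptide gene, fell from 45.8 ± 7.51 CPM with DMSO to 30.4 ± 2.07 CPM with dTAG (SD, n = 2 each), at a log2 fold change of -0.59, and was not called without dTAG replicate 2, at -0.52. With the trend removed ADM stood at -0.30, and with the ERCC factor as a covariate at -0.29, called in both. Over all the lists of family, partner, protease, HIF and hypoxia genes, 84 of 100 genes were tested, 5 were called higher and 5 lower. These lists include the 10 genes, and the shares over all tested genes were again 3.44% and 3.66%.

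Among other axon guidance families, the ephrins and their receptors, the netrins and the slits, 25 of 39 genes were tested. Of these, 1 was called higher and 5 lower, where 3.44% and 3.66% of all tested genes were. Below 0 lay 21 of the 25, with a median log2 fold change of -0.12, against -0.015 over all tested genes. With the trend removed, 2 were called higher and 6 lower, where 10.6% and 7.45% of all tested genes were. The called genes with the largest changes were SLIT1 (log2 fold change -0.88), the Eph receptor gene EPHB3 (-0.77), the ephrin genes EFNB1 (-0.55) and EFNA1 (-0.52), and EPHA2 (0.42), an Eph receptor gene expressed in epithelia. Their BH-adjusted p-values in edgeR lay between 0.011 and 0.026. With the trend removed each of the 5 stayed called, and EFNB1 and EFNA1 moved to -0.33 and -0.31. SLIT1 shares its strand with the readthrough gene ARHGAP19-SLIT1. Without dTAG replicate 2 none of these 5 was called, and their log2 fold changes were -0.99, -0.47, -0.49, -0.50 and 0.52 in the same order. Without dTAG replicate 1, EPHB3 alone of the 5 was called, at -1.16. Without DMSO replicate 2, EFNA1 was not called, at -0.36. With the ERCC factor as a covariate, EPHA2 alone was called, at 0.58, and EPHB3 and EFNA1 stood at -0.25 and -0.26. With ERCC totals as library sizes, none of the genes named from the lists was called, and DPYSL2, EGLN3, ADM, EFNA1 and EFNB1 lay between 0.088 and 0.34, above 0 and below the median of all tested genes.

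Scaling by the ERCC spike-in totals, in place of the TMM method of edgeR, shifted the median log2 fold change over the tested genes to 0.63, and the values of the 10 genes with it. On that scale NRP1 lay above the median at 1.77, whereas NRP2 (0.69), PLXNA2 (0.69), SEMA3C (0.70) and VEGFA (0.74) lay close to it. PLXNA1 (0.47), PLXNB1 (0.37), PLXNB2 (0.35), SEMA4B (0.25) and SEMA3A (0.17) lay below the median while above 0. The sign of those 5 differences thus depends on the scaling. The ERCC share of the gene counts also varied within a condition. It was 0.015% and 0.0265% in DMSO replicates 1 and 2, and 0.0136% and 0.0103% in dTAG replicates 1 and 2. Under the other 14 alternatives NRP1 stayed between 1.02 and 1.19. PLXNB1 stayed between -0.39 and -0.06, PLXNB2 between -0.41 and -0.02, SEMA3A between -0.89 and -0.20 and SEMA4B between -0.53 and -0.14 in those 14. NRP2, PLXNA1, PLXNA2, SEMA3C and VEGFA changed sign under at least 1 of them.

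**Figure D5:**
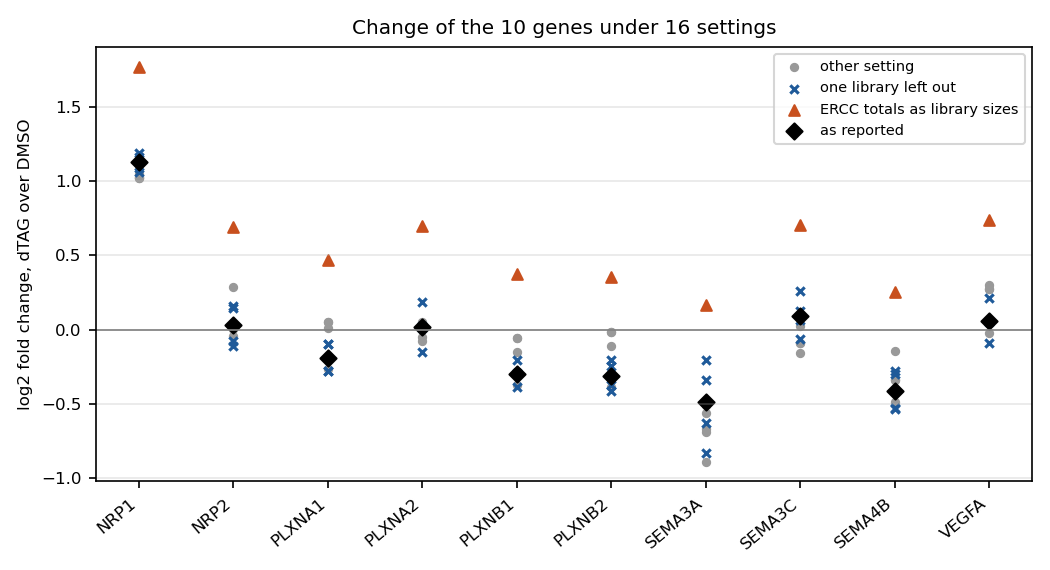
Log2 fold change of dTAG over DMSO for the 10 genes under 16 settings. Diamonds are the values reported, crosses leave out a single library, triangles use ERCC totals as library sizes and grey circles are the remaining settings. NRP1 is above 1 under each setting, and the triangles lie highest for every gene.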

How the data were processed

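TT-Seq libraries of HCT116 KAP1-dTAG cells, 2 with DMSO and 2 with dTAG, were analyzed. Before deposition, the authors removed adapters (Trim Galore 0.6.4), aligned the reads to hg38 (STAR 2.7.3a) and took counts over whole protein-coding genes and ERCC RNAs (featureCounts, Subread 1.6.3). The deposited values are raw counts without normalization. The strand setting is not given in the sources used here. All 374 counted genes that lie wholly inside another gene on the same strand had 0 counts, whereas 463 of 575 on the opposite strand had counts, so the strands were kept apart and reads shared on a strand were left out.

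The 12612 of 19901 genes that reached 50 counts in every library were scaled by TMM and compared by edgeR's quasi-likelihood test (R 4.3.3, edgeR 4.0.16), two-sided. P-values were adjusted over all of these genes by Benjamini-Hochberg (BH), and genes were called at an adjusted p under 0.05. Standard errors are the log2 fold change over the root of F. CPM use TMM library sizes. The GC and length trend was removed per library by lowess (span 0.3). Totals per library were 93105627 to 102314741 counts, and replicates, not depth, limit the precision except for genes near 100 counts. The script was tested on simulated data.

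The 10 genes and all lists were chosen with earlier results of these data known. Named genes are the 10, called genes of the family and pathway lists, the 5 called genes with the largest change among other axon guidance families, both neighbors of NRP1 and the 5 genes most like NRP1, of which 1 is not reported here. Alternatives were DESeq2 1.42.0, upper-quartile scaling, ERCC totals, the likelihood ratio test, a covariate for an ERCC factor, other count minimums, a replicate block, trend removal and leaving out each library. Promoter sequences are those of RefSeq.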

Additional observations from a re-analysis of the deposited data

How the results depend on the processing

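The log2 fold change of NRP1 was 1.05 with upper-quartile normalization, 1.77 with ERCC totals as library sizes, 1.03 with the ERCC factor as a covariate and 1.02 with the GC and length trend removed, with or without the replicate block. Leaving out 1 library gave 1.06 to 1.19. With ERCC totals, the values of PLXNB2 and SEMA4B reversed to 0.352 and 0.252 in a fit where the median of all tested genes was 0.63, and 0 genes were called by edgeR's quasi-likelihood test, with 229 at an unadjusted p under 0.05.

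Over all tested genes, 434 were called higher and 461 lower. These counts were 691 higher with DESeq2, 255 and 869 with upper-quartile normalization, 796 higher with the ERCC factor, 729 and 864 by the likelihood ratio test, 673 and 744 with no filter on low counts, 1341 and 939 with the trend removed and 1504 and 1125 with the trend removed and the replicate block. Leaving out 1 library gave 48 to 2798 higher and 21 to 2693 lower, with the lowest counts without dTAG replicate 2 (48 and 21) and dTAG replicate 1 (66 and 72) and the highest without DMSO replicate 1, and in such a fit the lone library is assumed to vary like the pair of the other condition. Of the 84 tested genes of the family and pathway lists, 5 were called higher and 5 lower. The counts were 8 lower with DESeq2, 12 lower with upper-quartile normalization, 0 and 0 with ERCC totals (4 at an unadjusted p under 0.05), 11 higher with the ERCC factor, 14 lower by the likelihood ratio test, 10 lower with no filter, 15 and 12 with the trend removed and 16 and 12 with the trend removed and the block. Leaving out 1 library gave 2 to 17 higher and 0 to 26 lower, and without dTAG replicate 2, where edgeR called 0 lower, 6 were lower at an unadjusted p under 0.05. The cause of these shifts was not tested.

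The labels number the replicates, but same-numbered libraries did not deviate together (correlation of deviations -0.25 across genes), so the numbers are not taken as pairs. With the replicate block, 162 genes were called higher and 178 lower, and 3 and 2 in the lists. PLXNB2, ITGB1, DPYSL2, EGLN3, PDK1, HK2, EPHA2 and EFNA1 were not called with that block. With the numbers crossed, a pairing added after seeing the data, 1587 and 1603 were called, and 10 and 22 in the lists.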
